A study of Mus musculus with 14 samples.

Results

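The histone genes were taken from the gene table as those whose symbol begins with Hist and a digit, H2af, H3f3 or H1f. This rule found 72 of 17552 genes. Of these, 61 belong to the histone clusters (48 in Hist1 on chromosome 13, 10 in Hist2 on chromosome 3, 2 in Hist3 on chromosome 11 and 1 in Hist4 on chromosome 6), and 11 have the symbols of variant histones. The RNA came from livers of male mice that were Apoe-deficient, that is, lacked apolipoprotein E, and whose labels give the strain C57BL/6 and an age of 8 weeks. Both groups carried that deficiency and received a Western diet, and the erythrodiol group received in it 10 mg/kg of erythrodiol, a triterpene alcohol of the olive. The labels give 8 weeks of diet, and the study's methods a longer time. Each group had 7 pools of RNA from a few mice each, and each pool was sequenced as 1 library from RNA selected by its poly-A tail. Each gene had 1 deposited expected count for a group, the sum over its 7 libraries, so the gene values used here have no replicates and no test of the treatment was made on them. Gene values of the single libraries were not analysed here.

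Histones are the proteins around which DNA is wound: H2A, H2B, H3 and H4 form the core of the nucleosome, and H1 binds the DNA between cores. The genes of the clusters are mostly expressed while DNA is replicated. Their messages typically end in a short stem-loop instead of a poly-A tail, and the protein SLBP binds this stem-loop. Variant histones such as H3.3 and H2A.Z are made throughout the cell cycle from ordinary polyadenylated messages, and in the adult liver, where few hepatocytes divide, they replace cluster histones in chromatin. A library selected for poly-A tails is poor in cluster messages that lack such a tail.

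The stem-loop was looked for in the 100 bases that follow the stop codon, with the histone stem-loop motif (16 bases, with bases 3, 4, 10, 13 and 14 free) on the sense strand of the GENCODE M21 transcripts (GRCm38). It was found in 42 of the 61 cluster genes and in 1 variant gene, H2afx, against 0.226% of 20831 coding genes in all. The sequences below are those of genes on which the results turn, 5′ to 3′, with the stem-loop in capitals and the flanks in lower case.
Hist2h2aa1: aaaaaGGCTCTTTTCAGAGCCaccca
Hist2h2aa2: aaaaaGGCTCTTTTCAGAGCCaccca
Hist2h3c2: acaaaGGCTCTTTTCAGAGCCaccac
Hist1h1c: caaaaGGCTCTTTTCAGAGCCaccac
Hist1h2ae: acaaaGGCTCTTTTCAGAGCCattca
Hist1h4i: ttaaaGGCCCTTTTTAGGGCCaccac
Hist1h4h: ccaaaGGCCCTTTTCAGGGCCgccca
H2afx: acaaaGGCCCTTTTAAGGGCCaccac
The capitals lie at chr3:96246032-96246047 on the plus strand for Hist2h2aa1 and at chr3:96239784-96239799 on the minus strand for Hist2h2aa2, in the 3′ untranslated region of both, and the letters of the 2 copies are identical. Those of Hist2h3c2 are at chr3:96238485-96238500 on the minus strand, and those of Hist1h1c at chr13:23739512-23739527 on the plus strand. For H2afx they are at chr9:44335240-44335255 on the plus strand. Those of Hist1h2ae are at chr13:23570668-23570683 and those of Hist1h4i at chr13:22040966-22040981, both on the minus strand, and those of Hist1h4h at chr13:23531458-23531473 on the plus strand. The form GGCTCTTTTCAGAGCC was the most frequent, in 25 of the 43 genes with a match, which encode H1, H2A, H2B or H3. The 10 H4 genes with a match had other forms, of which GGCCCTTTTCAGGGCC was the most frequent, in 6 genes. The first base of the match lay 22 to 59 bases after the stop codon.

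All counts added up to 122889032 in control and to 124686047 with erythrodiol, and levels are given per 1000000 counts of these totals (CPM). Control libraries held 34856340 to 55244294 clean reads, with 64.33% to 81.43% of them mapped to genes, and erythrodiol libraries 47669656 to 48058606, with 72.96% to 76.13% mapped. Reads of Apoe were counted in both groups (9403 in control and 8293 with erythrodiol), and no sequenced group with an intact gene is at hand to set them against. By RT-PCR of hepatic RNA the study found no Apoe expression in its Apoe-deficient mice. The hepatocyte markers were present in both groups at a summed level of 1.07e+05 CPM in each. Intervals are exact at 95% and cover counting error alone, neither differences between mice nor the division of reads between similar genes. Over the 14037 genes whose counts in both groups added up to 50 or more, the median log2 ratio of erythrodiol to control was 0.16, so a gene at a ratio of 1 stood 0.16 below the middle of all genes on the log2 scale. A lower level of a message can come from fewer cells of a kind or from less RNA per cell, and in whole liver these cannot be told apart.

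The histone genes gave 812 CPM in control and 786 CPM with erythrodiol. Most of this came from the variant genes, whose counts summed to 80895.85 in control and 78918.90 with erythrodiol, or 658 and 633 CPM (ratio 0.962, interval 0.952 to 0.971). The 61 cluster genes summed to 18898.97 and 19057.05 counts, or 154 and 153 CPM (ratio 0.994, interval 0.974 to 1.01). Thus the sum of the cluster genes differed between the groups by less than its counting error when scaled by the totals, but against the median of all genes both sums were lower with erythrodiol (0.888 for the clusters and 0.859 for the variants). The median log2 ratio was -0.01 over the 10 cluster genes with at least 50 counts (from -1.74 to 2.57) and 0.10 over the 10 such variant genes (from -0.70 to 0.63), and both medians lay below the 0.16 of all genes. Against genes of like length, however, both medians lay above 0, at 0.18 and 0.01. Set against genes near the median length of the summed genes, the cluster sum had a ratio of 1.17 and the variant sum of 0.919.

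**Figure D1:**
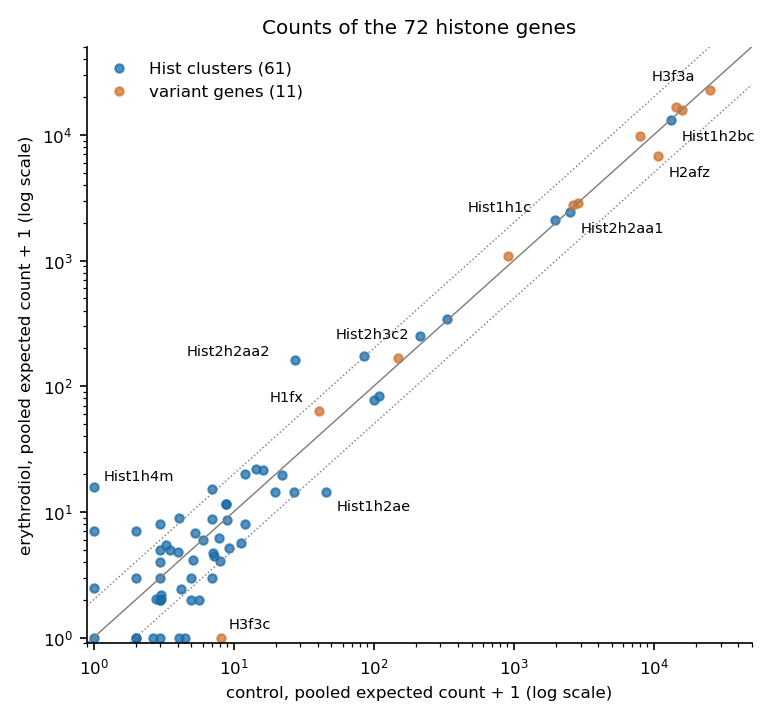
Pooled expected counts of the 72 histone genes in the control group (x axis) and the erythrodiol group (y axis), each with 1 count added, on log scales; blue points are the 61 cluster genes, orange points the 11 variant genes, the solid line marks equal counts and the dotted lines 2-fold differences. The variant genes and Hist1h2bc fill the upper right, and most cluster genes lie at the lower left, where the points scatter widely at few counts.

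Among the variants, the 2 genes of the replacement histone H3.3 were the most abundant by counts. H3f3a (chr1:180802560-180813605) had 25326.06 counts in control and 22890.16 with erythrodiol (206 and 184 CPM, ratio 0.891, interval 0.875 to 0.907). H3f3b (chr11:116021961-116026039) had 15808 and 15817 counts, a ratio of 0.986 (interval 0.965 to 1.01). Their coding sequences are 76.7% identical, and against the median of all genes both lay below 0 on the log2 scale, H3f3a at -0.33 and H3f3b at -0.18. H3f3c had 7.10 counts in control and 0 with erythrodiol, and 53.8% of its 100-base windows also occur in H3f3a. The sum of H3f3a and H3f3c gave the same ratio as H3f3a, 0.891.

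H2afz, which encodes H2A.Z, a variant placed at promoters by the SRCAP and p400 complexes, showed the largest difference of the variants with over 1000 counts. It had 10804 counts in control and 6732 with erythrodiol, or 87.9 and 54 CPM, and was 1.63-fold lower with erythrodiol (ratio 0.614, interval 0.596 to 0.633). Among the 10219 genes with at least 1000 counts, 1.43% had a lower ratio. The gene lies at chr3:137864487-137866922, outside the Hist2 cluster of the same chromosome, and its counts were whole numbers in both groups. In the GENCODE transcripts 13% of its 100-base windows recur in Gm13007 or Gm8203, and none in another histone gene. H2afv, whose protein H2A.Z.2 differs from H2A.Z at few residues, had 2643 and 2768 counts (ratio 1.03, interval 0.978 to 1.09). The coding sequences of H2afz and H2afv are 79.2% identical over 384 bases, and they share no 100-base window. Thus the genes of the H2A.Z pair differed in ratio by more than their counting intervals. Scaled by the totals, the sum of the other variants had a ratio of 1.02 without H2afz and of 0.994 without H3f3a. On that scale the lower sum of the variants thus rested largely on these 2 genes.

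The genes of macroH2A, a histone with a large extra domain found on silent chromatin, were higher with erythrodiol or near the middle of all genes. H2afy had 7974 counts in control and 9810 with erythrodiol (64.9 and 78.7 CPM, ratio 1.21, interval 1.18 to 1.25), and it overlaps the annotated transcript Gm31485. H2afy2 had 147.49 and 167.48 counts (ratio 1.12, interval 0.892 to 1.41), and it overlaps Aifm2. H2afx, the variant that is phosphorylated at DNA breaks, had 907.20 and 1090.26 counts (ratio 1.18, interval 1.08 to 1.29). H2afj had 2874 and 2882 counts (ratio 0.988, interval 0.938 to 1.04). The variants of H1 were both higher with erythrodiol when scaled by the totals. H1f0, the linker histone of cells that have stopped dividing, had 14365 counts in control and 16699 with erythrodiol (ratio 1.15, interval 1.12 to 1.17). It was near the middle of all genes, at 0.03 on the log2 scale against their median. Among the 10219 genes with at least 1000 counts, 51.8% had a lower ratio than H1f0. H1fx had 40 and 63 counts (ratio 1.55, interval 1.03 to 2.37). Of the 10 variants with at least 50 counts, 6 lay above 0 on the log2 scale, where 70.1% of all genes with that many counts did. H2afy2 stood at 0.00 against the median of all genes, and H2afv lay below 0 when set against the median of all genes, against genes of like length or with TMM factors.

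**Figure D2:**
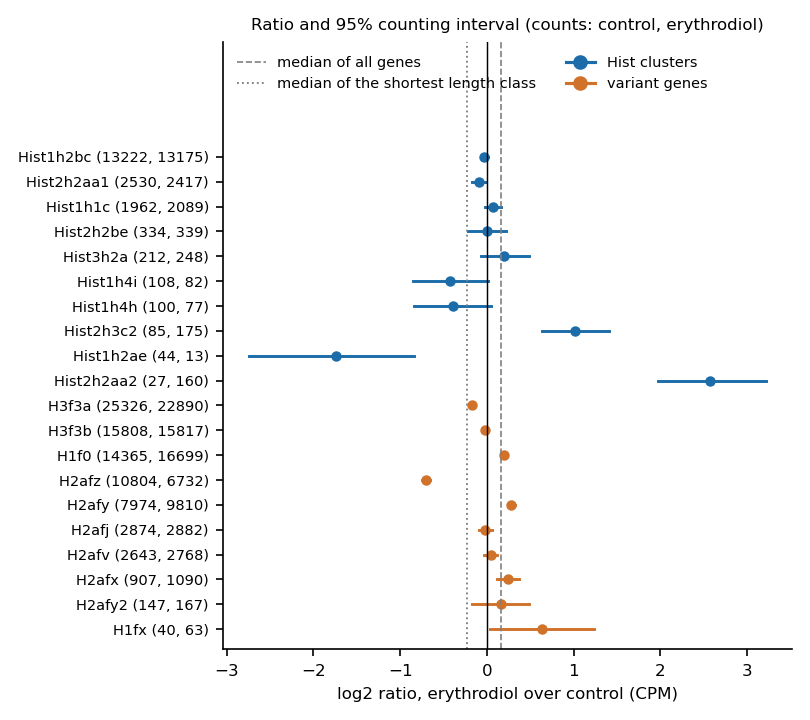
Log2 ratio of erythrodiol to control in CPM (x axis) with its 95% counting interval (bars) for the 20 histone genes with at least 50 counts, with counts of control and erythrodiol beside each symbol; blue marks cluster genes, orange variant genes, the dashed line the median of all genes (0.16) and the dotted line that of the shortest genes (-0.23). Hist2h2aa2 and Hist2h3c2 stand at the right and Hist1h2ae at the left, and H2afz at -0.70 is the variant farthest from 0.

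Nearly all counts of the clusters came from a few genes. Hist1h2bc, an H2B gene at chr13:23684199-23692480, alone gave 70% of them in control and 69.1% with erythrodiol, with 13221.95 and 13175.44 counts (ratio 0.982, interval 0.959 to 1.01). Hist2h2aa1, an H2A gene, had 2529.53 and 2417.37 counts (ratio 0.942, interval 0.89 to 0.996). Hist1h1c, which encodes the linker histone H1.2, had 1961.90 and 2088.70 counts (ratio 1.05, interval 0.986 to 1.12). These 3 genes together held 93.7% and 92.8% of the cluster counts. The H2B gene Hist2h2be had 334 and 339 counts (ratio 1, interval 0.858 to 1.17), and the H2A gene Hist3h2a 212.18 and 247.93 (ratio 1.15, interval 0.955 to 1.39). For the genes with the most counts the groups were thus close, and Hist1h2bc, Hist2h2aa1, Hist1h1c and Hist2h2be changed side of 0 between the scalings, that is, the totals, the median of all genes, genes of like length and TMM factors. Without the 3 most abundant genes the sum of the clusters had a ratio of 1.14, and of 1.03 when Hist2h2aa2, the copy of Hist2h2aa1, was left out too.

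By histone type, the cluster genes of H1 summed to 1992.01 counts in control and 2130.00 with erythrodiol (ratio 1.05, interval 0.991 to 1.12). Those of H2A summed to 2862.98 and 2871.02 (ratio 0.988, interval 0.938 to 1.04), and those of H2B to 13636.98 and 13606.00 (ratio 0.983, interval 0.96 to 1.01). The 11 H3 genes, with far fewer counts, summed to 141 and 224 (ratio 1.57, interval 1.26 to 1.95). The 12 H4 genes summed to 266 and 226.03 (ratio 0.837, interval 0.698 to 1). H3 was therefore the type whose cluster genes, as a sum, were higher with erythrodiol by more than counting error. Most of that sum came from 3 near-identical copies in Hist2, with 114 and 196 counts. The 8 H3 genes of Hist1 had 27 and 28 (ratio 1.02, interval 0.581 to 1.8). The core histones enter the nucleosome in equal numbers, but their cluster messages were far from equal in these libraries, with 111 CPM of H2B and 1.15 CPM of H3 in control.

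Of the 10 cluster genes with at least 50 counts, 2 were at least 2-fold higher with erythrodiol, Hist2h2aa2 and Hist2h3c2, where 0.385% of all genes with that many counts were. Hist2h3c2 was under 2-fold against the median of all genes and with TMM factors, at 0.86 on the log2 scale in both. At least 2-fold lower was 1, Hist1h2ae, against 0.748% of all such genes. None of the variants passed this limit in either direction, against 1.13% of all genes. Genes with few counts pass it more often: among all genes with 50 to 1000 counts, 2.99% did, and the 3 cluster genes past it had between 57.97 and 259.57 counts over both groups. At a limit of 1.5-fold, H1fx was added above and H2afz below, where the shares of all genes were 3.08% and 3.58% (6.66% in either direction).

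Hist2h2aa2 had 26.59 counts in control and 160.34 with erythrodiol, a ratio of 5.94 (interval 3.93 to 9.33). It is an H2A gene at chr3:96239779-96240374 and a copy of Hist2h2aa1, at chr3:96245497-96246052. The coding sequences of both are 100% identical over 390 bases, and 100% of the 100-base windows of Hist2h2aa2 recur in Hist2h2aa1. The reads of the 2 genes can hardly be told apart, and the pair summed to 2556.12 counts in control and 2577.71 with erythrodiol, a ratio of 0.994 (interval 0.941 to 1.05). What differed was the share of the pair assigned to Hist2h2aa2, 1.04% in control and 6.22% with erythrodiol. The value of Hist2h2aa2 on its own is thus uncertain, and the pair did not differ by more than its counting error.

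Hist2h3c2, an H3 gene at chr3:96238479-96239127, had 84.95 counts in control and 174.62 with erythrodiol, a ratio of 2.03 (interval 1.55 to 2.66). It too has copies, Hist2h3c1 with an identical coding sequence (100% over 408 bases) and Hist2h3b (99.8%). Hist2h3c1 had 26 and 13.45 counts, and Hist2h3b 3.05 and 7.93. The 3 genes summed to whole numbers, 114 and 196, with a ratio of 1.69 (interval 1.34 to 2.15). Here, unlike in the H2A pair, the sum over the copies kept a ratio above 1 beyond its counting error, though below 2-fold. The 8 H3 genes of the Hist1 cluster summed to 27 and 28 counts (ratio 1.02, interval 0.581 to 1.8).

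Hist2h2aa2 and Hist2h3c2 lie beside each other, 651 bases apart, and Hist2h2aa1 and Hist2h3c1 in mirrored order, 632 bases apart, in the other copy of this stretch. The 2 genes of the former copy summed to 111.54 and 334.96 counts (ratio 2.96, interval 2.38 to 3.7), and those of the latter to 2555.53 and 2430.82 (ratio 0.937, interval 0.886 to 0.991). The annotated transcript Gm20634 shares windows with genes of both copies. Whether the copies differed in expression or in how reads were assigned to them was not tested.

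**Figure D3:**
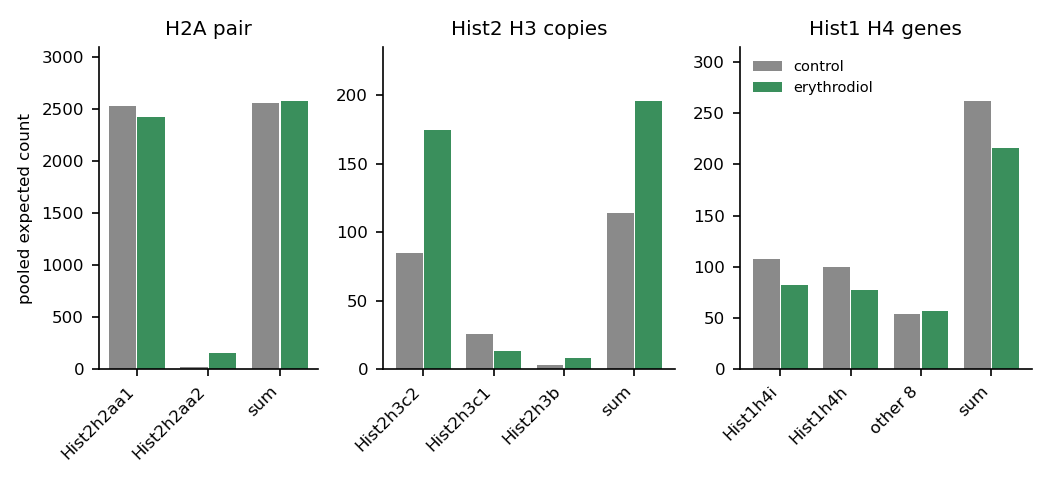
Pooled expected counts (y axis, from 0, a scale for each panel) in control (grey) and with erythrodiol (green) for the H2A pair, the Hist2 H3 copies and the Hist1 H4 genes, with the sum of each set at the right. In the H2A pair the sums are level at 2556.12 and 2577.71, while the sum of the H3 copies is higher with erythrodiol (196 against 114) and that of the 10 H4 genes lower (216.03 against 262).

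Hist1h2ae, an H2A gene at chr13:23570663-23571220, had 44.50 counts in control and 13.47 with erythrodiol, and was 3.35-fold lower (ratio 0.298, interval 0.149 to 0.559). Of its 100-base windows, 30.7% recur in other histone genes. The 12 H2A genes of the Hist1 cluster summed to 88.99 and 44.38 counts (ratio 0.492, interval 0.335 to 0.712), and without Hist1h2ae the other 11 to 44.49 and 30.91 (ratio 0.685, interval 0.418 to 1.11). All 12 belong to a set of 17 H2A genes linked by shared 100-base windows, with Hist2h2aa1, Hist2h2aa2 and H2afx among them. That set summed to 3558.00 and 3713.35 counts (ratio 1.03, interval 0.982 to 1.08). The values of Hist1h2ae and of the 12 genes are thus uncertain. Whether these genes differed in expression or in how reads were assigned was not tested. The H4 genes Hist1h4i and Hist1h4h had 107.88 and 82.05 counts (ratio 0.75, interval 0.556 to 1.01) and 99.78 and 77.28 counts (ratio 0.763, interval 0.56 to 1.04). Their coding sequences are 95.8% identical, and both intervals include 1. The 10 H4 genes of the Hist1 cluster summed to 262 and 216.03 counts (ratio 0.813, interval 0.676 to 0.977).

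The other 51 cluster genes had fewer than 50 counts over both groups, and 30 cluster genes fewer than 10. The nearest genes on either side of the limit were Hist1h2ae with 57.97 counts and Hist1h2be with 39.78. Together the 51 genes held 275.71 counts in control and 280.85 with erythrodiol, a ratio of 1 (interval 0.847 to 1.19). As a set the weakly counted genes were thus level between the groups within a wide interval. In at least 1 group 10 cluster genes and 1 variant had no count, among them Hist1h2an, which had none in either. Of all 17552 genes 1079 were at 0 in at least 1 group, and 5.83% in just 1. These shares were not matched to genes of similarly few counts. Hist1h4m was the gene at 0 in a group with the most counts in the other, 14.72 with erythrodiol, which is at least 4.84-fold higher when the control is set to 3 counts. That limit leaves out the counting error of the 14.72 counts, and the exact lower limit of the ratio was 3.46. Of its 100-base windows 88.1% recur in Hist1h4n, which had 6.99 and 3.04 counts, so the value of Hist1h4m is uncertain. The study also measured this gene, there named H4c17, by quantitative PCR on RNA of single mice, and found no significant change.

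Expected counts of a gene that are not whole were taken as a mark of reads divided between genes. In 43 of the 61 cluster genes (70.5%) a count lay over 0.01 from a whole number in at least 1 group, against 4 of the 11 variants (36.4%) and 18.8% of all genes. The sums over the cluster genes of a type were nevertheless whole within 0.03 counts for each of H1, H2A, H2B, H3 and H4 in both groups. For H2A this does not show that reads were divided within the clusters alone, since the H2A genes share windows with H2afx, whose counts were not whole, and Hist3h2a shares windows with Trim17. At least 1 window of 100 bases, the length of a read, recurred in another histone gene for 51 of the 61 cluster genes and 3 of the 11 variants. The H2B genes Hist1h2bq and Hist1h2br had equal counts, 7.84 in control and 10.62 with erythrodiol, and identical coding sequences.

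The cluster genes had a median transcript length of 490 bases (366 to 2667) and the variants of 1631 (556 to 2304), against 2670 for all genes. When all genes were put in 10 classes of equal size by length, the median log2 ratio was -0.23 in the shortest class (up to 1063 bases) and 0.33 in the longest, with every class above the one before it. The shortest class held 58 of the 72 histone genes. Against its own length class Hist1h2bc stood at 0.21 and Hist1h1c at 0.30 on the log2 scale, but against the median of all genes at -0.19 and -0.09. H2afz stayed low against either, at -0.70 and -0.87. With 1068 bases, however, H2afz lies just above the limit of the shortest class. The median of its own class was -0.01, so its value against like length depends on where that limit falls. The part of transcript length in the ratios was not tested.

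**Figure D4:**
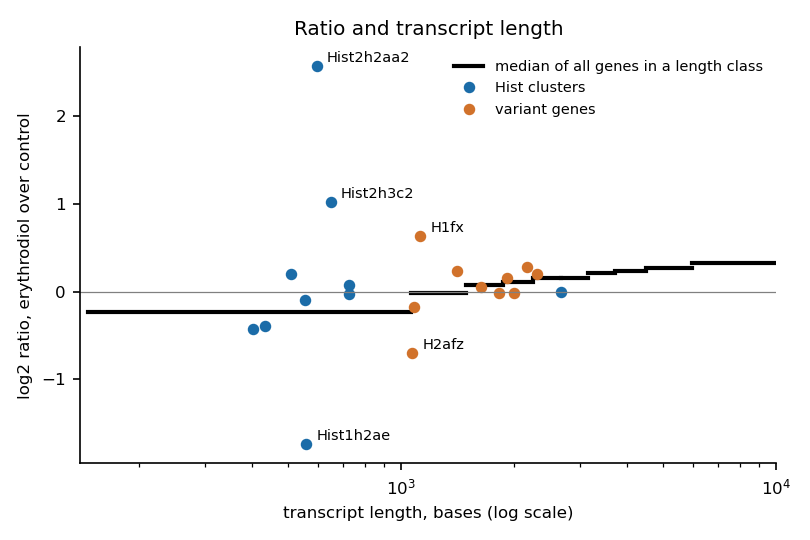
Log2 ratio of erythrodiol to control (y axis) against transcript length in bases (x axis, log scale) for the 20 histone genes with at least 50 counts; blue points are cluster genes and orange points variants, and black bars are the medians of all genes in each of 10 length classes, the last drawn to the edge of the axis. The bars climb from -0.23 to 0.33, and most histone genes lie on the side of short transcripts.

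Levels between genes were compared per length. In control the variants H3f3a (190 CPM per kb), H2afz (82.3), H3f3b (64.3), H1f0 (50.7) and H2afy (29.9) and the cluster genes Hist1h2bc (148), Hist2h2aa1 (37) and Hist1h1c (22) were the most abundant. With erythrodiol the order of the first ranks was H3f3a (169 CPM per kb), Hist1h2bc (145), H3f3b (63.4), H1f0 (58.1) and H2afz (50.6), so that H2afz passed from the third place to the fifth.

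The 3′ ends were compared with these levels. The cluster genes with the stem-loop letters had a median of 0.0798 CPM per kb in control and reached 37 (Hist2h2aa1). The motif was not found in 8 cluster genes with at least 30 annotated bases after the stop codon, and these held 13584.18 of the 18898.97 cluster counts in control, nearly all of them in Hist1h2bc. The GENCODE model of Hist1h2bc has 2 exons and 742 bases after the stop codon. Hist2h2be has 2192 bases there without the motif within the searched stretch. In 11 more cluster genes the annotated end was too short to search. The variants other than H2afx and H3f3c had no match, and their median was 29.9 CPM per kb. The signal letters AATAAA or ATTAAA stood in the last 50 bases of 8 of these 9 variants, of 12 of the 42 cluster genes with the stem-loop letters and of 4 of the 8 without a match, against 80.2% of the 20831 coding genes. Hist1h2bc had no such letters there. The sum of the 42 genes had a ratio of 1.02 between the groups (interval 0.984 to 1.06) and that of the 8 genes of 0.983 (interval 0.96 to 1.01), and both intervals include 1. H3f3c was annotated as not coding.

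**Figure D5:**
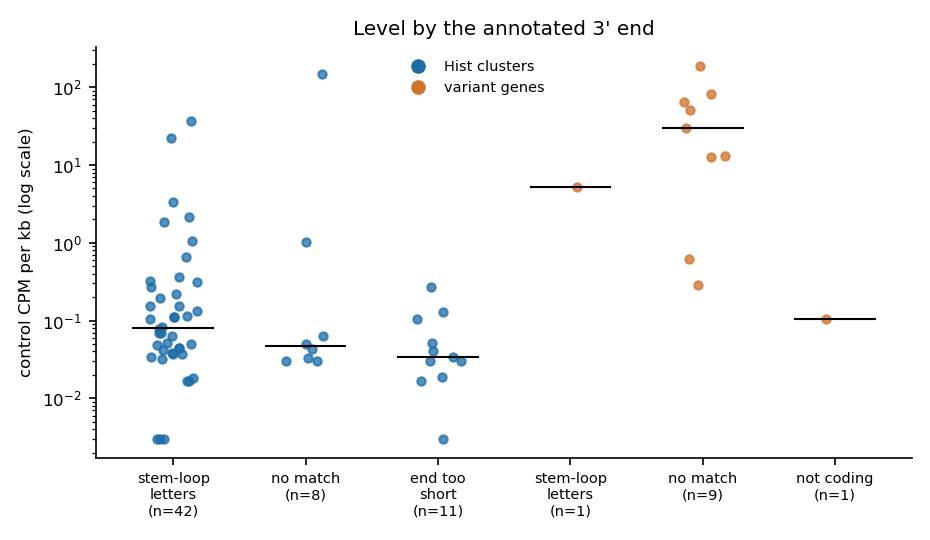
Control level in CPM per kb (y axis, log scale) of each histone gene by class and by what the annotated 3′ end holds (x axis); blue points are cluster genes, orange points variants, black lines medians, points are spread sideways for sight, and genes without a count are drawn at the bottom. Most cluster genes lie below 1, the variants without the motif have a median of 29.9, and the cluster gene without the motif at the top is Hist1h2bc at 148.

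Promoters of 66 of the 72 genes were found in the RefSeq table (GRCm38.p6; 250 bases before to 50 after the start). The letters TATAAA on the sense strand were present in 26 of 56 cluster promoters (46.4%) and in 1 of 10 variant promoters, against 9.77% of 27025 promoters. CCAAT on either strand was present in 48 of 56 (85.7%) and 6 of 10, against 41.1% of all. It was found in each cluster promoter of H1, H2A, H2B and H3 in the table but in 3 of the 11 of H4 (27.3%). Within 1000 bases of each other lay 20 pairs of cluster genes, and 10 of these diverged from a shared stretch. Hist1h2ac and Hist1h2bc start 239 bases apart, and had 18.85 and 13221.95 counts in control. Hist2h2ac and Hist2h2be, 191 bases apart, had 4.69 and 334 counts. In the other 8 diverging pairs no gene had more than 44.50 counts in a group. Of the transcripts newly assembled by the authors, none fell to a cluster gene and 1 to a variant, H2afv (chr11:6427226-6444449, 6 exons), where 28.5% of all genes had at least 1.

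Of 15 genes that make and clear histone messages, with at least 50 counts each, 13 lay above 0 on the log2 scale (70.1% of all genes did) and none passed 2-fold (1.13% of all genes did). Their median log2 ratio was 0.22, near the 0.16 of all genes. Slbp, for the stem-loop binding protein, had 1201 counts in control and 1322 with erythrodiol (ratio 1.08, interval 1 to 1.17). Npat, which activates cluster genes in S phase, had 1042 and 1246 (ratio 1.18, interval 1.08 to 1.28). The range went from Lsm1 of the decay machinery (log2 ratio -0.20) to the helicase gene Upf1, with 5839 and 8365 counts (0.50, ratio 1.41, interval 1.37 to 1.46). The 24 chaperones and exchange factors had a median of 0.17, and none passed 2-fold, which at 1.13% of all genes says little of so short a list. Hat1, which acetylates new H4, was the lowest with 1636 and 1134 counts (ratio 0.683, interval 0.633 to 0.737). Srcap, the motor of the complex that places H2A.Z, was the highest with 7525 and 10527 counts (ratio 1.38, interval 1.34 to 1.42). Scaled by the totals, the direction of Srcap was thus opposite to that of H2afz. The genes of these lists were not set against genes of like length, and the part of transcript length in this contrast was not tested. The 24 genes of S phase and proliferation had a median of 0.01, with none past 2-fold, from Gins1 of the replication fork (460 and 250 counts, log2 ratio -0.90) to Cdc6 (48 and 65 counts, 0.42).

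Markers of other cell types of the liver differed between the groups. Of the 5 neutrophil and myeloid precursor genes with at least 50 counts, 4 were at least 2-fold lower with erythrodiol, against 0.748% of all genes, and the 9 genes of the list summed to 13.2 CPM in control and 4.89 with erythrodiol. The 5 macrophage markers summed to 852 and 549 CPM, and 4 of them were lower. The 6 erythroid markers summed to 1.26e+03 and 929 CPM, with 2 at least 2-fold lower against the same 0.748%. Lymphocyte (4.69 and 4.93 CPM) and endothelial markers (145 and 152 CPM) were near level, and no marker gene measured in these lists was at 0 in either group. The macrophage sum had a ratio of 0.645 where H2afz had 0.614. The part of these cells in the level of H2afz or of any other histone gene was not tested.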

How the data were processed

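RNA of 7 control and 7 erythrodiol pools was read as pairs of 100 bases on the BGISEQ-500 platform. The authors mapped clean reads with Bowtie2 to RefSeq transcripts merged with new coding transcripts and deposited expected counts from RSEM, 1 per gene and group, not normalized and not replicated. Mapping rates in percent and counts of clean reads per library were also deposited. The authors' columns of log2 ratio, p-value and q-value compare pooled libraries and were not used. Versions are not given in the sources used here.

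Members and gene lists were chosen with earlier results of these data known. Counts were scaled by the group totals, and ratios carry exact conditional binomial (Clopper-Pearson) intervals at 95%. A group at 0 was set to 3 counts, and no ratio was formed where both groups had at most 3. Medians and fold limits used genes with at least 50 counts. Named were all variants, cluster genes with at least 500 counts, the 5 highest and 5 lowest ratios, genes past 2-fold, genes at 0 against at least 10 counts, and the extremes of each list with Slbp and Npat. Other genes were named after their values were seen. Alternatives were the median of all genes or of like length (at least 100 counts, 10 length classes), TMM factors of edgeR 4.0.16, other minimum counts, a pseudocount of 1, a limit of 1.5-fold, and members left out. Sequences and gene models came from GENCODE M21 and RefSeq. Ratios were tested on simulated data. The tools were R 4.3.3, scipy 1.17.1, pandas 2.3.3, numpy 2.4.6 and Python 3.11.15.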

Additional observations from a re-analysis of the deposited data

Results flagged for a closer look

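The share of clean reads mapped to genes was 64.33% in control replicate 3, and the nearest of the other control libraries was at 74.39%. This gap was 0.588 of the range of the 7 control libraries, and for a single measure chance alone singles out about 1 in 20 groups in this way. Clean reads were searched as well, in both groups, so some such flag arises by chance more often than that. The counts of the histone genes are sums over the libraries, and no value of theirs is given without this library.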

How the results depend on the processing

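No paired analysis was possible because gene values are sums over the 7 libraries of a group, and for the same reason no library could be left out. Against the median of all genes, the median log2 ratio was -0.17 for the cluster genes and -0.06 for the variants, the summed counts had ratios of 0.888 and 0.859, and 1 member, Hist2h2aa2, was at least 2-fold higher. With TMM factors these values were -0.17, -0.05, 0.892, 0.863 and 1. Against genes of like length, the cluster median was 0.18, and its difference from the variants 0.17 where it was -0.12. The summed ratios were 1.17 and 0.919, each set against the single length class of the median length of its genes. Genes of other lengths in a sum were not matched to their own class. The cluster sum had a ratio of 1.02 without Hist1h2bc and, chosen after seeing the data, 1.14 without its 3 most abundant genes. It was 1.03, likewise chosen, when Hist2h2aa2, whose reads can hardly be told from those of Hist2h2aa1, was left out too. The variant sum had 0.994 without H3f3a and turned to 1.02 without H2afz, the latter also chosen after seeing the data. Members at least 2-fold higher were 5 with a minimum of 10 counts and 7 with none, and members 2-fold lower 4 and 10, which adds genes of very few counts. With a minimum of 100 counts 0 were 2-fold lower, and with the minimum of 50 counts 2 were 1.5-fold lower. When genes that share 100-base windows were summed, an alternative added after seeing the data, 0 of 16 sums were 2-fold higher and 0 lower. Of 50 values under alternatives 23 stayed within the limits set for them. For a sum these were its counting interval, and for a number of members 1.5 times that number. For a median or a difference of medians they were built from the medians of the members' lower and upper limits. Those are no interval of the median itself, so the 23 do not measure its stability. The depth limits the 51 cluster genes under 50 counts, whose intervals are wide.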
